A study of Homo sapiens with 18 samples.

Results

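Replication-dependent histone genes make the bulk of the histone protein that a cell needs while it copies its DNA. The core histones H2A, H2B, H3 and H4 form the particle around which DNA is wound, and the linker histone H1 binds the DNA between particles. Their genes lie in clusters, are transcribed mainly in S phase, and mostly give mRNAs that end in a stem-loop in place of a poly(A) tail. The members were all rows of the count tables whose symbol starts with HIST1H, HIST2H, HIST3H or HIST4H, 73 of 23710 rows. They comprised 6 linker genes and 67 core genes, of which 18 code for H2A, 20 for H2B, 14 for H3 and 15 for H4. The HIST1 cluster on chromosome 6 held 56 of them, the HIST2 cluster on chromosome 1 held 13, the HIST3 cluster on the same chromosome held 3, and HIST4H4 on chromosome 12 stood alone. RefSeq annotates 3 of the 73 as pseudogenes.

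RNA sequencing compared head and neck squamous carcinoma cell lines in which EHF, an ETS-type DNA-binding protein of epithelial cells, had been raised or lowered. EHF was overexpressed in A253 (3 libraries, against 3 of control cells) and in SCC25 (2 libraries, against 2 of control cells). Overexpressing cells grew with doxycycline, which induced EHF, and control cells in regular medium, so the drug and EHF cannot be told apart. In CAL27 it was lowered with the hairpins sh 64 and sh 65 (2 libraries each, against 2 with a control hairpin). All cells grew with serum, and the labels name no separate cultures or clones, so p-values measure the spread between these libraries, which may be technical. The hairpins are named as in the deposited count table, since the deposited TPM table carries both names the other way round. They are not tied here to the knockdown numbers of the labels. Library totals ran between 7068155 and 19962159 counts. EHF levels, as counts scaled to library size (CPM), were 765, 711 and 633 in A253 overexpressing libraries, against 84.5, 91.4 and 83.2 in A253 controls. They were 860 and 892 in SCC25 overexpressing libraries against 461 and 420 in SCC25 controls. With the hairpins they were 497 and 526 (sh 64) and 444 and 469 (sh 65), against 962 and 992 in CAL27 controls. EHF moved in every line in the direction its label gives. The levels left by the hairpins differed by an amount that did not pass the test (sh 65 over sh 64, log2 difference -0.16 ± 0.07 SE, edgeR adjusted p = 0.23). Keratin and adhesion markers of squamous epithelium were present in all 3 lines, with none of 8 at 0 counts in any library. Of 13 markers of fibroblasts, leukocytes and endothelium, CD68 alone passed 100 CPM in any library. The libraries are bulk RNA, so fewer cells in S phase and less histone mRNA per cell cannot be told apart.

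Promoter windows show which letters the members share, and where the histone classes differ, before any level is considered. Windows of 250 bases before to 50 after the annotated start (RefSeq, GRCh38.p14) were found for 65 of the 73 members. Letters were searched on both strands, and matches of different motifs were allowed to overlap. CCAAT, the letters of the CCAAT box, stood in 55 of 65 members (84.6%), against 39.7% of 27305 genes with a window. All 6 H1, 16 H2A, 18 H2B and 12 H3 members with a window held it, and 3 of 13 H4 members did. AAACACA, the core of the H1 box, stood in all 6 linker genes and in 3 of the 59 core members, against 6.94% of all genes. ATTTGCA, most of the octamer, stood in 11 of 16 H2A and 14 of 18 H2B members and in 0 of 6 linker members, against 5.13% of all genes. TATAAA stood in 67.7% of members and in 14% of all genes. Of the letters ETS factors bind, CGGAAG stood in 10.8% of members against 22.6% of all genes, and AGGAAG in 21.5% of members against 38.1%. These matches describe letters in a window and do not show that a factor binds. The 6 windows below are shown because the results turn on these genes. Capitals mark matches to the TATA box, CCAAT box, H1 box and octamer letters given above, on either strand, and each sequence runs 5′ to 3′ on its gene's strand. HIST1H1A, with the largest fall in SCC25, lies at chr6:26017738-26018037 on the minus strand:
HIST1H1A: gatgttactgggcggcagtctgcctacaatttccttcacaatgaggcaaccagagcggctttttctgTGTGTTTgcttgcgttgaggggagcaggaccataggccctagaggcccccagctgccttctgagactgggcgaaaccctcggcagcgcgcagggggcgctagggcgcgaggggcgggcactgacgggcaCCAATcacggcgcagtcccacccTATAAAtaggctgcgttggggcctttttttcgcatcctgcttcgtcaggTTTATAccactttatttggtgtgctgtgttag
The linker gene HIST1H1C (chr6:26056421-26056720, minus strand) opens the stretch that is near 0 in A253, and its window holds the H1 box letters at 2 places:
HIST1H1C: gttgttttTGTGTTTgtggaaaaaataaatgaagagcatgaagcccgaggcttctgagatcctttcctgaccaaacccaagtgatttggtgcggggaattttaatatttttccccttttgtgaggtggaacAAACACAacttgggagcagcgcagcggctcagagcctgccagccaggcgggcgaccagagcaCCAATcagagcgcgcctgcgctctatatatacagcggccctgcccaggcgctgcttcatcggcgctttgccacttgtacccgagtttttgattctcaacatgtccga
HIST1H2BB (chr6:26043664-26043963, minus strand), a core gene with another of the largest falls in SCC25, has the octamer letters and no H1 box letters:
HIST1H2BB: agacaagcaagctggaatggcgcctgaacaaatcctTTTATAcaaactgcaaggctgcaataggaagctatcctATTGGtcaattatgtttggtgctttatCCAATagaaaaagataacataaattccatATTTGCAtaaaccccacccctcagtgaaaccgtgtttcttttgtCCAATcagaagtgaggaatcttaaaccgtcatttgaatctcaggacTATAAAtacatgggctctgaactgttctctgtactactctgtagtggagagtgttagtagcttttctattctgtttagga
HIST1H3C (chr6:26045134-26045433, plus strand) is the last gene before that stretch, and its window holds CCAAT at 4 places:
HIST1H3C: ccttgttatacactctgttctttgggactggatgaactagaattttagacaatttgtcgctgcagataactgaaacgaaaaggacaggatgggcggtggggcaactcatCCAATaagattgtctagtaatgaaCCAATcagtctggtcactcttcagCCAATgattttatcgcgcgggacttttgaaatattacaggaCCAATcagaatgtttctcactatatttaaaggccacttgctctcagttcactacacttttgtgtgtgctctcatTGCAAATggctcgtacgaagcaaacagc
HIST1H3E (chr6:26223928-26224227, plus strand, the first of 2 annotated windows) was higher with each hairpin:
HIST1H3E: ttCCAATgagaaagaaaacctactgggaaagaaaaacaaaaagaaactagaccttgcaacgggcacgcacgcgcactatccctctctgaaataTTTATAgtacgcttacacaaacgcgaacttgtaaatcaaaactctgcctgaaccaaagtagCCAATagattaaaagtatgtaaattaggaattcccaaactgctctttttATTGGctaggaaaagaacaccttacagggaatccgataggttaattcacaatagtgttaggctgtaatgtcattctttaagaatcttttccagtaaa
HIST1H4F (chr6:26240143-26240442, plus strand) follows the stretch in the tables and was near 0 in CAL27:
HIST1H4F: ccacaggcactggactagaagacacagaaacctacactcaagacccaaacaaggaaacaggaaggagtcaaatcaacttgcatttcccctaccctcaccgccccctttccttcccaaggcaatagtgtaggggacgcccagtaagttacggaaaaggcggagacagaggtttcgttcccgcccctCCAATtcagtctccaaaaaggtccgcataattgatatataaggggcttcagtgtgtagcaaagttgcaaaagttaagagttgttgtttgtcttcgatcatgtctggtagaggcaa

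The lines differed in which members had reads, and the cause of this was not tested. In A253 a run of 18 consecutive rows, from HIST1H1C to HIST1H1D, was at or near 0 in all 6 libraries. The run holds 17 members, 4 of them linker and 13 core genes, and HFE, a gene of iron balance. No row of it passed 6 counts in an A253 library, and the run summed to between 3 and 10 counts per library. The same rows summed to between 27787 and 56089 counts in SCC25 libraries and between 29773 and 84546 in CAL27 libraries. HIST1H1E and HIST1H1D, both linker genes, and HIST1H3E had 0 counts in every A253 library, which allows up to 0.03265 CPM over the 6 libraries together. HFE itself had 0 counts in all A253 libraries, 210 to 344 in SCC25 and 122 to 307 in CAL27. The rows on either side were high in A253, HIST1H3C at 3130 to 4714 counts and HIST1H4F at 3137 to 4925. Overexpressing and control A253 libraries alike lacked reads there. HIST1H1T, the testis linker gene, is the one member of the run that was also near 0 in the other lines.

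**Figure D1:**
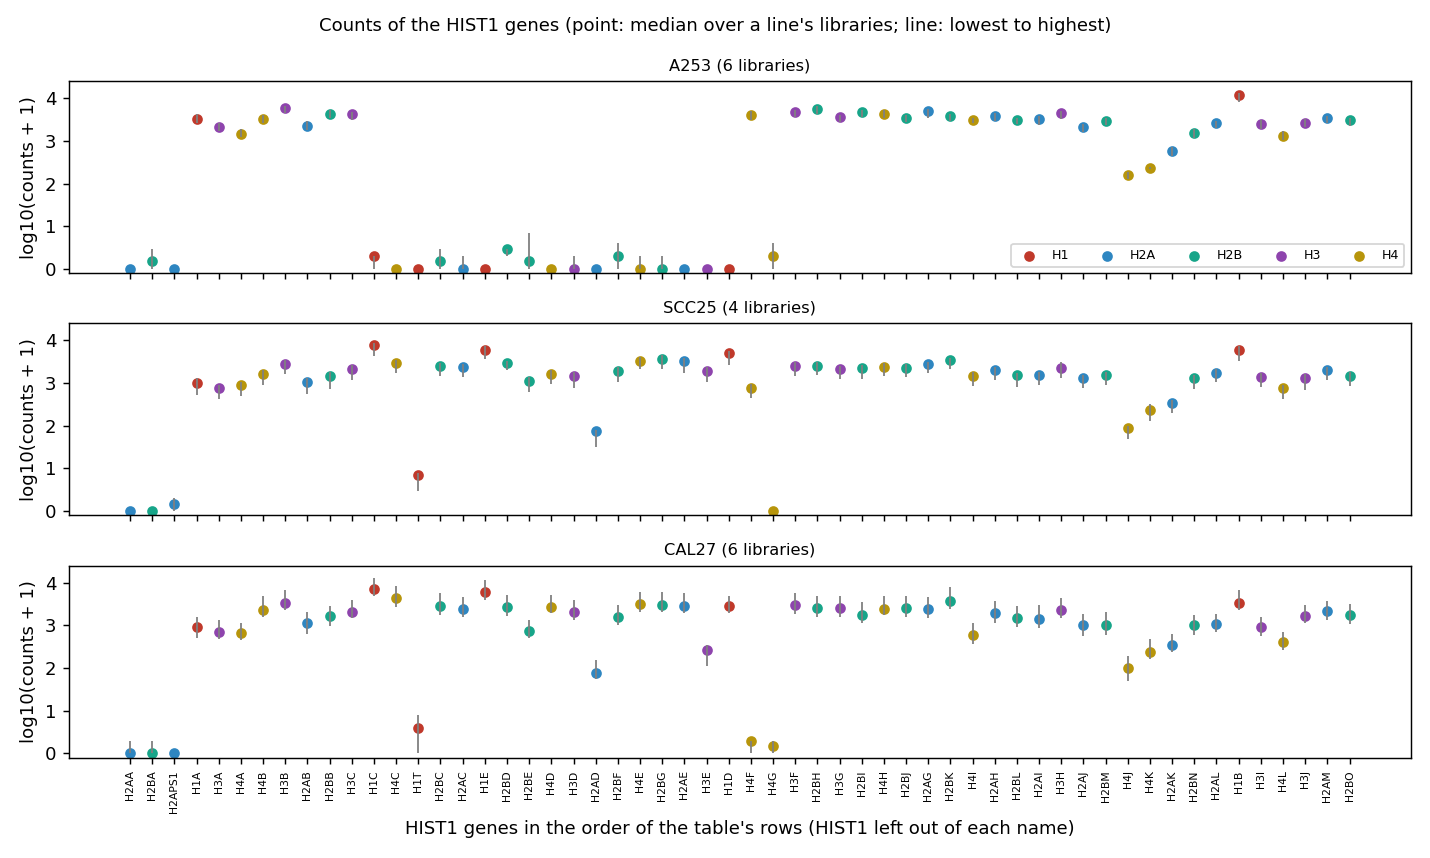
Counts of the 56 HIST1 genes in the order of the table's rows, as log10(counts + 1), in A253, SCC25 and CAL27. Points are medians over a line's libraries and lines run from the lowest to the highest library; HIST1H1C to HIST1H1D lie near 0 in A253 (at most 6 counts), and HIST1H4F does in CAL27 (at most 1 count).

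CAL27 had a gap of another kind. HIST1H4F, an H4 gene, had 0 or 1 counts in each of the 6 CAL27 libraries, against 438 to 969 in SCC25 and 3137 to 4925 in A253. HIST1H3E, an H3 gene whose row lies 2 places before it, was low in CAL27, at 112 to 352 counts, against 1081 to 2394 in SCC25. In all, 28 members stayed under 10 counts in every A253 library, 14 in every CAL27 library and 12 in every SCC25 library, and the 12 of SCC25 were under 10 in the other lines too. Of these 12, 6 were at 0 in all 16 libraries (HIST2H4A, HIST2H4B, HIST2H3A, HIST2H3C, HIST2H2AA3 and HIST2H2AA4, near-identical copies that share reads). Across the table, 35 genes were under 10 counts in every A253 library with at least 100 in every library of both other lines, 10 were so in SCC25 and 22 in CAL27. The longest unbroken run of such rows was 7 in A253, 2 in SCC25 and 1 in CAL27.

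The linker pool differed accordingly. Per length of gene, as TPM computed from the counts, HIST1H1B made up 75.8% ± 0.74 of linker mRNA in A253 controls and HIST1H1A 24.2% ± 0.74 (SD, n = 3). In SCC25 controls HIST1H1C led with 30.2% ± 0.25, before HIST1H1B at 23.2% ± 0.17, HIST1H1E at 23.2% ± 0.64, HIST1H1D at 19.2% ± 0.54 and HIST1H1A at 4.29% ± 0.03 (SD, n = 2). HIST1H1B and HIST1H1E did not differ there beyond their spread. CAL27 controls had the order HIST1H1C at 36.5% ± 0.58, HIST1H1E at 29.2% ± 0.82, HIST1H1B at 18.1% ± 0.79, HIST1H1D at 12.4% ± 0.31 and HIST1H1A at 3.86% ± 0.22. A253 thus had linker mRNA of 2 genes where the other lines had that of 5. HIST1H1B was at 1869 ± 47.1 TPM in A253 controls, 1111 ± 15.5 TPM in SCC25 controls and 844 ± 28.3 TPM in CAL27 controls, each set in its own table. Of all member counts, linker genes held 11.1% ± 0.40 in A253 controls, 21.6% ± 0.73 in SCC25 controls and 18.4% ± 0.08 in CAL27 controls. The leading core genes differed too, because several lie in the run that is near 0 in A253. For H3, HIST1H3B led in each line's controls, at 1613 ± 39.1 TPM in A253, 922 ± 56.5 TPM in SCC25 and 1353 ± 41.9 TPM in CAL27. For H4, HIST1H4H led in A253 controls (1546 ± 84.8 TPM), HIST1H4E in SCC25 controls (1280 ± 26.8 TPM) and HIST1H4C in CAL27 controls (1968 ± 66.1 TPM). HIST1H2BH led H2B in A253 controls (1695 ± 88.3 TPM), against HIST1H2BG in SCC25 controls (1231 ± 68.1 TPM) and in CAL27 controls (1243 ± 38.7 TPM). HIST1H2AG led H2A in A253 controls (1202 ± 27.6 TPM), against HIST1H2AE in SCC25 controls (838 ± 25.9 TPM) and in CAL27 controls (954 ± 19.6 TPM). The H4, H2B and H2A leaders of SCC25 and CAL27 all belong to the run.

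In SCC25 histone genes of every class were lower in the overexpressing libraries, which also had doxycycline, than in controls. Of 61 members that passed the filter on low counts, 56 fell and 0 rose (edgeR quasi-likelihood test, adjusted p under 0.05 over all genes), where 23.9% of all 14120 genes tested were called, 12.2% higher and 11.6% lower. The median log2 fold change of the members was -0.48, against 0.00 for all genes tested, and every member had a negative value, between -0.80 and -0.01. In 58 of the 61 both overexpressing libraries lay below both controls, as they did in 30.4% of all genes tested. The 5 members without a call were the low-count genes HIST2H2BA, HIST2H2BC, HIST3H2A, HIST1H2AD and HIST1H4J, which averaged under 12 CPM in controls. Leaving out any 1 library gave between 53 and 57 falls, and DESeq2 gave 52.

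All 5 linker genes tested in SCC25 fell. HIST1H1A had 48.4 and 46.8 CPM in overexpressing libraries, against 80.6 and 85.0 CPM in controls. Both overexpressing libraries were far below both controls, a log2 fold change of -0.80 ± 0.06 (SE, edgeR adjusted p = 5.73e-10), the largest fall of any member. HIST1H1B had 302 and 336 CPM in overexpressing libraries, against 445 and 460 CPM in controls (log2 fold change -0.51 ± 0.05, edgeR adjusted p = 1.27e-07). HIST1H1D had 251 and 287 CPM against 353 and 384 CPM in controls (-0.45 ± 0.06, edgeR adjusted p = 3.12e-06). These are somatic linker histones. HIST1H1C had 401 and 458 CPM in overexpressing libraries, against 530 and 561 CPM in controls (-0.34 ± 0.06, edgeR adjusted p = 8.63e-05). HIST1H1E had 342 and 364 CPM against 448 and 450 CPM in controls (-0.34 ± 0.05, edgeR adjusted p = 1.55e-05). The groups overlapped in none of the 5.

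Genes of every core class fell in SCC25, and differences between the classes were not tested. The median log2 fold change was -0.45 for H1 (5 of 5 lower), -0.45 for H2A (12 of 14 lower), -0.46 for H2B (17 of 19 lower), -0.57 for H3 (11 of 11 lower) and -0.48 for H4 (11 of 12 lower). HIST2H3D, an H3 gene, had 17.5 and 18.9 CPM in overexpressing libraries, against 27.6 and 31.9 CPM in controls (-0.70 ± 0.10, edgeR adjusted p = 7.92e-06). HIST1H2BB had 69.1 and 73.5 CPM against 108 and 120 CPM in controls (-0.68 ± 0.06, edgeR adjusted p = 9.89e-09). HIST1H4K and HIST1H3J complete the 5 largest falls, at -0.65 ± 0.11 and -0.64 ± 0.07. Among the core members with the highest mean TPM over all 16 libraries, a choice that leaves out genes near 0 in A253, HIST1H3B (156.6 and 155.9 CPM against 209 and 240.5 CPM in controls, -0.52 ± 0.06), HIST1H4H (-0.50 ± 0.06), HIST1H2BI (-0.51 ± 0.06), HIST1H2AH (-0.48 ± 0.05), HIST1H4B (-0.48 ± 0.06), HIST1H3F (-0.44 ± 0.08), HIST1H2BH (-0.42 ± 0.05) and HIST1H2AG (-0.32 ± 0.05) all fell. In each of the 8 both overexpressing libraries lay below both controls. So they did in the most abundant SCC25 core genes of the run, named after their values were seen, HIST1H4E (197.5 and 192.7 CPM against 245.9 and 251.9 CPM in controls, -0.35 ± 0.05), HIST1H2BG (-0.46 ± 0.06), HIST1H4C (-0.46 ± 0.05) and HIST1H2AE (-0.49 ± 0.06), which also fell. By cluster, 49 of 51 HIST1 members fell with a median of -0.48, and 7 of 10 members of the HIST2, HIST3 and HIST4 clusters fell with a median of -0.34, a difference that was not tested. The smallest falls that passed, named after their values were seen, were HIST2H2AC (-0.19 ± 0.06), HIST1H2BD (-0.23) and HIST4H4 (-0.28).

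**Figure D2:**
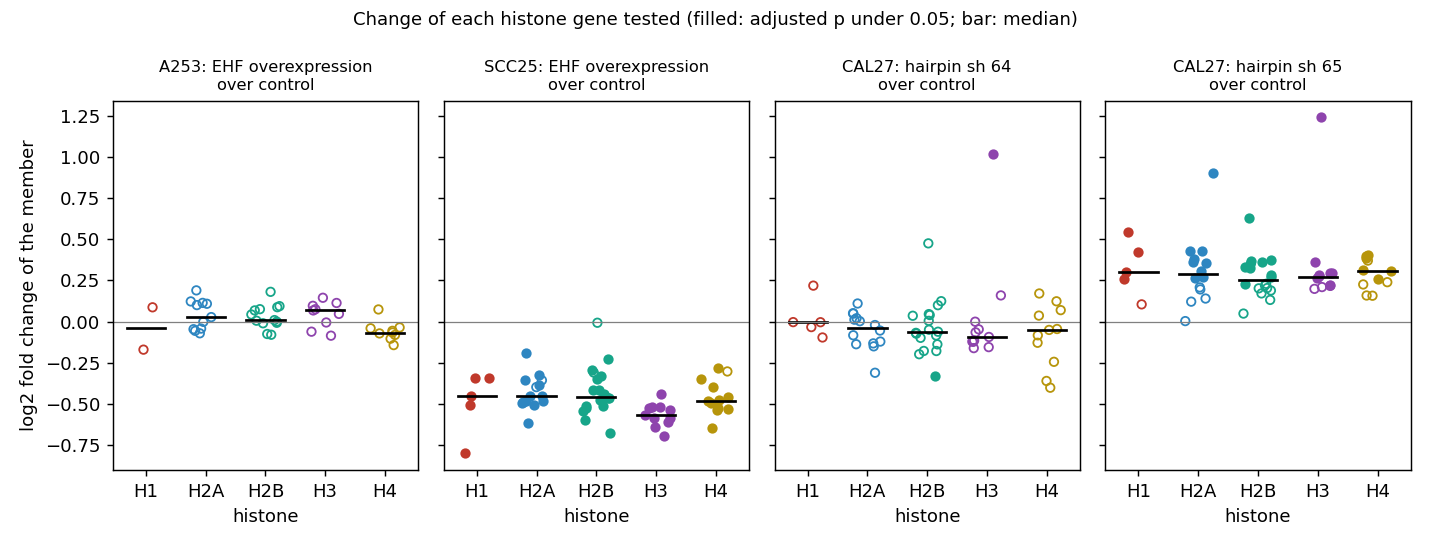
Log2 fold change of each member tested, by histone class, for EHF overexpression over control in A253 and SCC25 and for each hairpin over control in CAL27. Filled points passed the test and bars are class medians; SCC25 medians lie between -0.57 and -0.45, A253 members between -0.17 and 0.19.

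Summed over genes, linker and core mRNA were both lower in SCC25. Linker genes summed to 1345 and 1492 CPM in overexpressing libraries, against 1857 and 1940 CPM in controls, 0.747 times the control mean. Core genes summed to 4943 and 5049 CPM against 6530 and 7251 CPM in controls, 0.725 times the control mean. The linker share of member counts was 21.4% and 22.8% in overexpressing libraries, against 22.1% and 21.1% in controls, so the groups overlapped. Members together took 0.621% and 0.651% of all counts in overexpressing libraries, against 0.851% and 0.918% in controls.

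In A253 no change of the histone genes was found. Of 44 members tested, 0 passed edgeR's adjusted threshold in either direction, with 3 at an unadjusted p under 0.05 (HIST1H1A, HIST1H2AG and HIST2H2BE) and 0 called by DESeq2, where 7.97% of all 14503 genes tested were called, 5.03% higher and 2.94% lower. The members' log2 fold changes lay between -0.17 and 0.19 with a median of 0.00 and a median SE of 0.08. HIST1H1A had 195, 199 and 225 CPM in overexpressing libraries, against 251, 215 and 231 CPM in controls (log2 fold change -0.17 ± 0.07, edgeR adjusted p = 0.19). HIST1H1B had 816, 685 and 836 CPM in overexpressing libraries, against 757, 693 and 751 CPM in controls (0.09 ± 0.08, edgeR adjusted p = 0.624). The groups overlapped in both linker genes, the only ones tested in this line, and in 43 of the 44 members, while 24.3% of all genes tested had groups that did not overlap. Linker sums were 1011, 883 and 1061 CPM in overexpressing libraries, against 1008, 908 and 981 CPM in controls. Core sums were 8149, 7083 and 8456 CPM in overexpressing libraries, against 7934, 7059 and 8244 CPM in controls. In each group the second replicate had the lowest linker and core sums.

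Within each A253 group, summed levels of other RNAs without a poly(A) tail ranked the libraries as the core sums did. Linker sums ranked the A253 controls otherwise. Core sums and these RNAs also ranked the libraries alike within each SCC25 group, but not within every CAL27 group. In CAL27 controls the orders were opposite, at 23244 and 22636 CPM for these RNAs and 8071 and 8461 CPM for core genes. The 12 listed RNAs found in the table, mostly RPPH1 and RMRP, the RNA parts of the ribonucleases P and MRP, summed to 16913, 14119 and 17099 CPM in overexpressing libraries, against 14727, 13743 and 16345 CPM in controls. The second replicate was again the lowest of each group. In SCC25 these RNAs summed to 23018 and 25911 CPM in overexpressing libraries, against 24284 and 26521 CPM in controls. There the groups overlapped. Of 9 such RNAs tested, edgeR called 0 (0 at an unadjusted p under 0.05, median log2 fold change 0.11). Of 10 tested in A253, RNU6ATAC, a minor spliceosome RNA, fell by 0.34. What part these RNAs had in the histone results of either line was not tested. The labels say that total RNA was enriched for mRNA and do not say how. Summed fibroblast markers were 104 and 101 CPM in SCC25 overexpressing libraries, against 93.0 and 83.2 CPM in controls. Of 4 such markers tested there, 2 were called higher and 1 lower, where 23.9% of all genes were called. The part of fibroblast markers in the histone results was not tested.

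**Figure D3:**
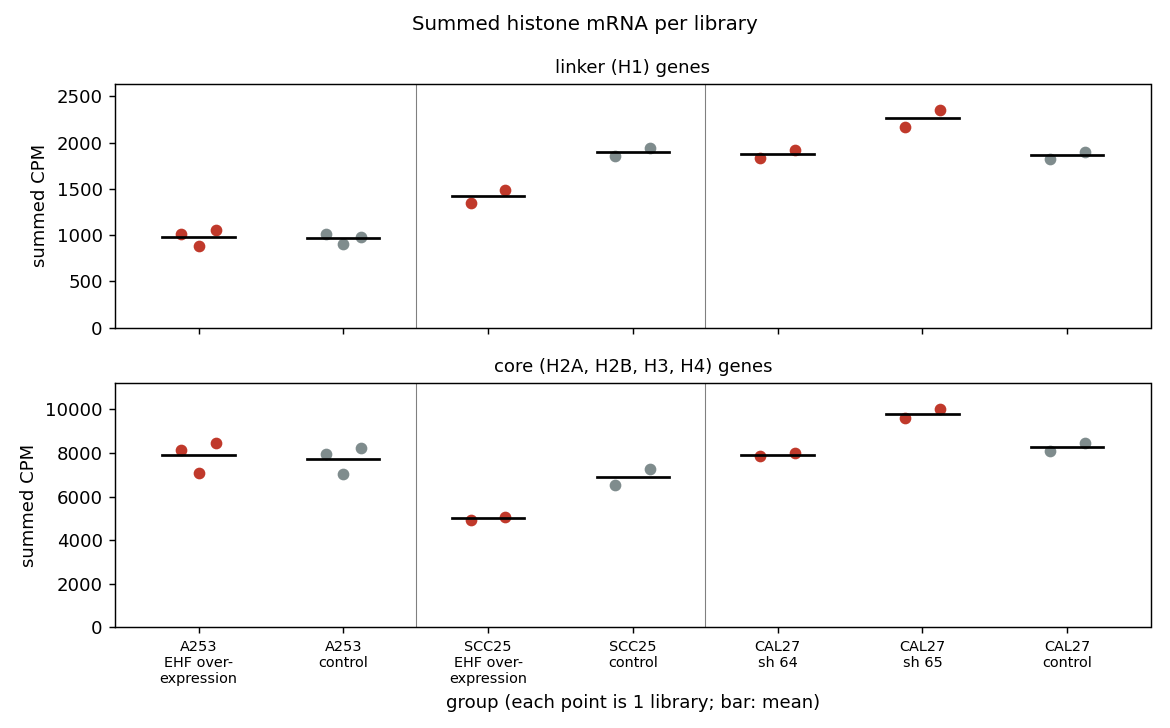
Summed CPM of linker genes (above) and core genes (below) in each of the 16 libraries, grouped by line with changed EHF in red and control in grey. Each point is 1 library and bars are means; the SCC25 overexpressing libraries lie below both controls in both classes, and the sh 65 libraries lie above all other CAL27 libraries.

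The overexpression effect itself differed between SCC25 and A253. So did the rise of EHF, with log2 fold changes of 0.99 ± 0.06 in SCC25 and 3.02 ± 0.08 in A253 (SE). Over the 44 members tested in both lines, 24 had a lower effect in SCC25 than in A253 and 0 a higher one (edgeR, interaction term, adjusted p under 0.05 over all genes), where 5.63% of all 15460 genes tested were called, 2.39% higher and 3.25% lower. The median difference of the log2 fold changes was -0.52, against -0.02 for all genes. HIST1H3C, an H3 gene, had the largest difference among those called, -0.74 ± 0.13 (edgeR adjusted p = 0.00417). It had 109 and 115 CPM in SCC25 overexpressing libraries against 159 and 184 CPM in SCC25 controls, and 303, 252 and 311 CPM in A253 overexpressing libraries against 271, 248 and 282 CPM in A253 controls. HIST1H1A followed with a difference of -0.64 ± 0.10 (edgeR adjusted p = 0.000719), HIST1H1B with -0.61 ± 0.11, HIST1H2AJ with -0.60 ± 0.11 and HIST1H2BO with -0.58 ± 0.12. Both linker genes that could be compared were called, and 22 of 42 core genes were. The count rested on few libraries: it was 10 or 15 without SCC25 overexpression replicate 1 or 2, 7 without SCC25 control replicate 2, and 38 without A253 overexpression replicate 2, while the median difference stayed between -0.58 and -0.43 in all leave-one-out fits.

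**Figure D4:**
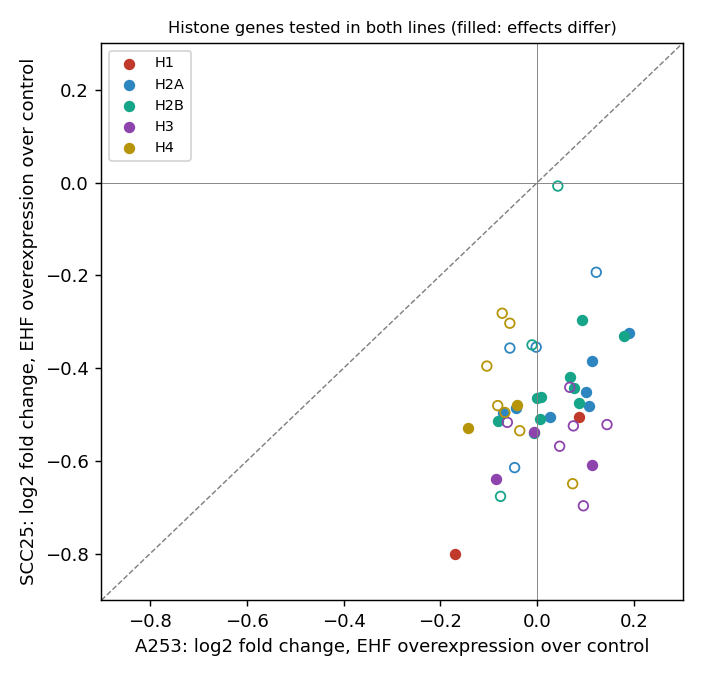
Log2 fold change of EHF overexpression over control in SCC25 (vertical) against that in A253 (horizontal) for the 44 members tested in both lines; filled points are the 24 whose effects differed by the interaction test, and the dashed line marks equal effects. All points lie below the line.

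In CAL27 the hairpins differed in their effect on the histone genes. With sh 65, 35 of 59 members tested rose and 0 fell, where 14.6% of all 13629 genes tested were called, 7.62% higher and 7.01% lower. The members' median log2 fold change was 0.27, against 0.01 for all genes, and in 55 of 59 members both sh 65 libraries lay above both controls, as they did in 28.4% of all genes tested. With sh 64, against the same controls, 1 member rose (HIST1H3E) and 1 fell (HIST1H2BM), with a median of -0.05, where 15.7% of all genes were called, 8.76% higher and 6.89% lower. Set directly against sh 64, sh 65 had 32 members higher and 0 lower, where 5.34% of all genes tested were called, 2.21% higher and 3.13% lower, with a median log2 difference of 0.31. Without control replicate 1 or 2 the count of rises with sh 65 was 7 or 15, and without sh 65 replicate 2 it was 23, with medians of 0.25, 0.30 and 0.23. The direct comparison gave 10 without sh 64 replicate 1, the more deeply sequenced sh 64 library.

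Linker and core genes both rose with sh 65. HIST1H1A had 93.3 and 123 CPM in sh 65 libraries and 73.0 and 71.2 CPM in sh 64 libraries, against 69.1 and 77.9 CPM in controls. It was higher with sh 65 than in controls (log2 fold change 0.55 ± 0.11, edgeR adjusted p = 0.00432) and than with sh 64 (0.58 ± 0.11, edgeR adjusted p = 0.00807). HIST1H1D had 292 and 340 CPM in sh 65 libraries and 269 and 279 CPM in sh 64 libraries, against 227 and 244 CPM in controls. All 4 hairpin libraries lay above both controls. Its rise passed with sh 65 (0.42 ± 0.08, edgeR adjusted p = 0.00155) and over both hairpins (0.32 ± 0.07, edgeR adjusted p = 0.00399), while sh 64 alone gave 0.22 ± 0.08 (edgeR adjusted p = 0.0782). HIST1H1E rose with sh 65 by 0.30 ± 0.07 (edgeR adjusted p = 0.00833) and HIST1H1C by 0.26 ± 0.07 (edgeR adjusted p = 0.0234). HIST1H1B had 362 and 386 CPM in sh 65 libraries, against 352 and 344 CPM in controls, a log2 fold change of 0.10 ± 0.07 that did not pass (edgeR adjusted p = 0.367). In all, 4 of 5 linker genes and 31 of 54 core genes tested rose with sh 65, with medians of 0.30 and 0.27. Linker sums were 2172 and 2356 CPM with sh 65 and 1831 and 1925 CPM with sh 64, against 1828 and 1903 CPM in controls. Core sums were 9615 and 10002 CPM with sh 65 and 7844 and 8006 CPM with sh 64, against 8071 and 8461 CPM in controls.

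Among core genes HIST1H3E stood apart. It had 27.2 and 24.8 CPM with sh 64 and 28.3 and 32.7 CPM with sh 65, against 12.4 and 13.2 CPM in controls. Every hairpin library was above both controls, with a log2 fold change of 1.02 ± 0.13 for sh 64 (edgeR adjusted p = 3.62e-05), 1.24 ± 0.13 for sh 65 and 1.13 ± 0.11 over both. The gene was low in CAL27 to begin with, and in SCC25 it fell with EHF overexpression, to 102 and 100.3 CPM against 141 and 162 CPM in controls (-0.58 ± 0.06). That fall did not set it apart, since 11 of 11 H3 members tested fell in SCC25 with a median of -0.57. HIST3H2A and HIST3H2BB, neighbours in the small HIST3 cluster that code for H2A and H2B, rose with sh 65 by 0.90 ± 0.16 and 0.63 ± 0.11. HIST3H2A had 18.7 and 18.0 CPM with sh 65 and 10.2 and 7.36 CPM with sh 64, against 8.85 and 10.5 CPM in controls. HIST3H2BB had 38.9 and 39.2 CPM with sh 65 and 21.4 and 25.1 CPM with sh 64, against 24.3 and 26.0 CPM in controls. Both were well above all other CAL27 libraries with sh 65 and overlapped the controls with sh 64. Among members called, they led the direct comparison of sh 65 with sh 64, at 1.02 ± 0.17 and 0.77 ± 0.12, before HIST1H4J (0.73 ± 0.19), HIST1H1A and HIST1H2AK (0.51 ± 0.11). HIST1H2AK also completes the 5 largest rises with sh 65 (0.43 ± 0.11). HIST1H2BM, an H2B gene, had 80.1 and 84.8 CPM with sh 64, against 102 and 104.5 CPM in controls, a fall (-0.33 ± 0.08, edgeR adjusted p = 0.0113) that was lost without either control or without sh 64 replicate 1.

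**Figure D5:**
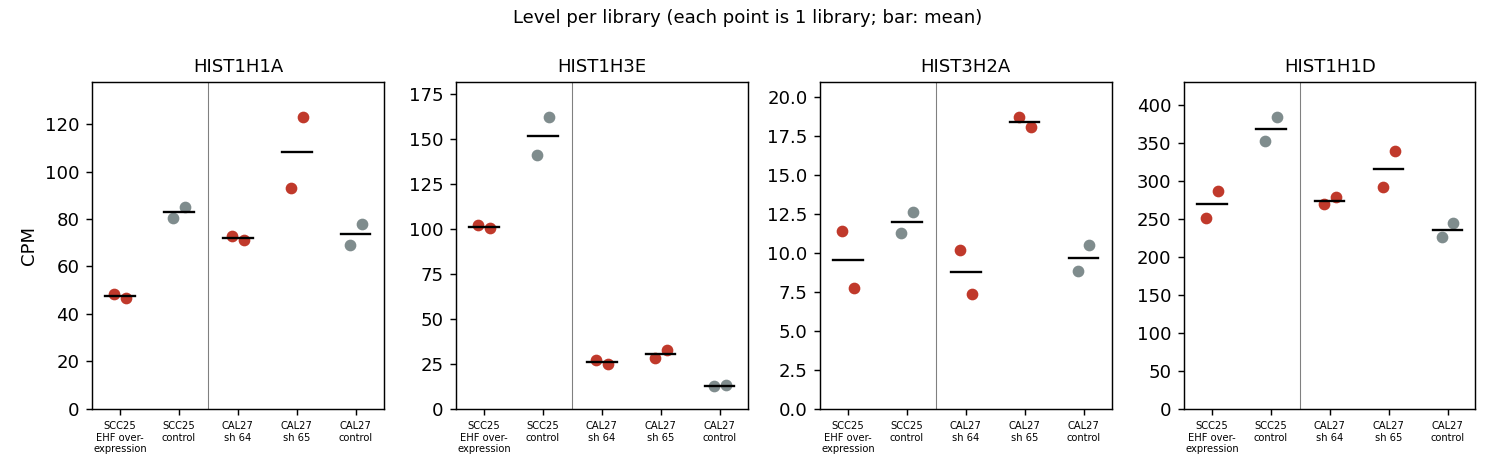
CPM of HIST1H1A, HIST1H3E, HIST3H2A and HIST1H1D in each SCC25 and CAL27 library, with changed EHF in red and control in grey; bars are means. HIST1H3E lies at 24.8 to 32.7 CPM in all 4 hairpin libraries against 12.4 and 13.2 CPM in controls, and HIST3H2A is high only with sh 65 among CAL27 libraries.

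Averaged over both hairpins, 8 of 59 members rose and 0 fell, where 18.8% of all genes tested were called, 9.88% higher and 8.91% lower, so the members' share of 13.6% was near the background. After HIST1H3E and HIST1H1D, the largest rises among those called were HIST1H4A (0.28 ± 0.08), HIST1H3I (0.26 ± 0.07) and HIST1H2BE (0.24 ± 0.08). In each of these 5 all 4 hairpin libraries lay above both controls. Without control replicate 1 or 2 the count was 1 or 2, and without sh 64 replicate 1 it was 4.

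Genes that work with the histone genes did not all move alongside them. S phase genes, which act in DNA replication, fell in SCC25 with overexpression in 25 of 30 and rose in 0. Of all genes tested there, 23.9% were called, 11.6% lower. The falls were led by GINS4 (-0.46) and MCM2 (-0.46), and the median log2 fold change of the 30 was -0.29. Their summed level was 2623 and 2635 CPM in SCC25 overexpressing libraries, against 3200 and 3329 CPM in controls. In A253, where the histone genes did not pass, 1 of 30 S phase genes rose (GINS3, 0.33) and 1 fell (RRM2, -0.22). That share of 6.67% was near the 7.97% of all genes called. With sh 65, where the histone genes rose and 14.6% of all genes were called, 5 S phase genes fell and 1 rose of 30 (CCNE2 -0.50, POLE -0.31 and MCM2 -0.31 leading the falls), and with sh 64, where 15.7% of all genes were called, 16 fell and 0 rose, led by UHRF1 (-0.62), E2F1 (-0.60) and CCNE2 (-0.49). S phase genes summed to 4719 and 4652 CPM with sh 65 and 4319 and 4422 CPM with sh 64, against 5127 and 5147 CPM in CAL27 controls. Their part in the histone results was not tested.

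Of 24 listed genes of the machinery that makes and trims histone mRNA, 4 fell and 1 rose in SCC25, a share of 20.8% that was near the 23.9% of all genes called. SRRT, a factor of RNA 3′ end processing, fell by 0.38 on the log2 scale, CSTF2, a cleavage factor subunit, fell by 0.25 and NCBP1, a subunit of the cap-binding complex, fell by 0.22. NPAT, the activator of histone genes in S phase, and SLBP, which binds the stem-loop, were not called in any of these comparisons. In CAL27 3 of 24 were called with sh 64 (12.5%) and 2 with sh 65 (8.33%), all lower. Both shares were under those of all genes called, 15.7% and 14.6%. The cyclins CCNE1 (-0.50 and -0.57) and CCNE2 (-0.49 and -0.50) fell with sh 64 and with sh 65, and SRRT fell with sh 64 (-0.31). CCNE2 is also one of the S phase genes counted above. In A253 0 of 24 were called by edgeR, with 2 at an unadjusted p under 0.05.

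Histone chaperones, which carry new histones to DNA, fell in SCC25 in 11 of 22 and rose in 1, where 23.9% of all genes were called, led by the importin IPO4 (-0.70), CHAF1B of the chromatin assembly factor (-0.44) and TONSL (-0.40). With sh 64, 6 of 22 fell (TONSL -0.63, IPO4 -0.38 and CHAF1B -0.31 leading), where 15.7% of all genes were called, 6.89% lower. With sh 65 edgeR called 0 of 22, with 3 at an unadjusted p under 0.05, where 14.6% of all genes were called. In A253 edgeR called 0 of 22, with 5 at an unadjusted p under 0.05, where 7.97% of all genes were called. Replacement histones have genes outside the clusters and give polyadenylated mRNA, though H2AFX makes both kinds of 3′ end. They were mixed in SCC25, where 6 of 10 fell and 2 rose. H1F0, a linker histone of resting cells, rose there by 0.39, while CENPA, the centromeric H3, and H2AFZ fell by 0.31 each. In CAL27 H1FX, H2AFJ and H1F0 rose with sh 64 (0.52, 0.41 and 0.47) and with sh 65 (0.73, 0.64 and 0.45). RNAs without a poly(A) tail summed to 25946 and 26365 CPM with sh 65 and 27232 and 24147 CPM with sh 64, against 23244 and 22636 CPM in CAL27 controls, above the controls with both hairpins. Of 9 tested, TERC and SCARNA2 rose with sh 65 (0.38 and 0.28) and TERC with sh 64 (0.49). Among all genes tested, 7.62% were called higher with sh 65 and 8.76% with sh 64. The part of these RNAs in the histone results was not tested. Squamous markers were called higher in 5 of 8 genes with each hairpin, against the same shares of all genes. They summed to 10579 and 11852 CPM with sh 65 and 10313 and 9630 CPM with sh 64, against 7078 and 7417 CPM in controls. Their part was not tested either.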

How the data were processed

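RNA was measured in 16 libraries. The authors deposited raw read counts per gene and TPM for each line. Per the submitters' processing notes, Bowtie 1.1.1, TopHat2 2.1.1, featureCounts 1.5.3, DESeq2 1.12.4 and the build hg19 were used. Counts were tested with edgeR 4.0.16 in R 4.3.3 (filterByExpr, TMM scaling, robust quasi-likelihood fit, Benjamini-Hochberg adjustment over all genes tested, threshold 0.05), the CAL27 groups in 1 fit and A253 with SCC25 in a joint fit for the difference of effects. DESeq2 1.42.0, other scalings, no filter, a replicate block and leaving out each library were alternatives. Each SE is the size of the log2 fold change over the root of its F statistic. CPM are scaled by TMM totals. TPM were computed from the counts with the gene lengths that the deposited counts and TPM imply, because the deposited CAL27 TPM columns swap the hairpin names. CAL27 counts give 696 rows another gene name than A253 counts, and rows were joined by position; all 73 members kept their names. The files held 8 per-sample value columns that were not used. ChIP libraries were not analysed here. The self-test ran on simulated counts. Members, lists and tests were chosen with earlier results of these data known. Named were all linker genes, the 5 largest rises and falls called in each comparison, the 2 core genes of each class with the highest mean TPM, and the 3 largest called changes of each other list, of which a single value is not reported here. Sharing of reads between near-identical copies and between overlapping genes makes single-gene values uncertain, and strand use in counting is not given in the sources used here.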

Additional observations from a re-analysis of the deposited data

Results flagged for a closer look

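The effect of EHF overexpression differed between SCC25 and A253 by the interaction test in 24 of 44 histone genes, all with a lower effect in SCC25. Among those called, HIST1H3C (-0.74), HIST1H1A (-0.64), HIST1H1B (-0.61), HIST1H2AJ (-0.60) and HIST1H2BO (-0.58) had the 5 largest log2 differences. The hairpins sh 65 and sh 64 differed directly in 32 of 59 histone genes, all higher with sh 65. The largest log2 differences among those called were 1.02 for HIST3H2A, 0.77 for HIST3H2BB, 0.73 for HIST1H4J, 0.58 for HIST1H1A and 0.51 for HIST1H2AK. Among 32 sets of 4 values screened, none had a library standing apart. Groups of 2 or 3 libraries could not enter this screen. The only group of 4 joins the 2 hairpins, whose differences widen its range, so a library apart could be missed.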

How the results depend on the processing

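The falls in SCC25 numbered 52 to 57 under all alternatives, and no called change of a named histone gene turned its direction under any alternative run. The median change of the members moved by less than the spread between replicates under every alternative in all 7 comparisons. In A253 the replicate block gave 1 rise. Over both hairpins the 8 rises became 2 with DESeq2, 15 with the replicate block and 1 to 12 with a library left out. With sh 64, rises numbered 2 when sh 64 and control alone were fitted, 2 with the replicate block and 1 to 2 with a library left out; falls numbered 3 without the filter, 3 when sh 64 and control alone were fitted, 6 with the replicate block and 0 to 4 with a library left out. With sh 65, 7 to 37 rises were called with a library left out, and sh 65 over sh 64 gave 10 to 34. The difference between SCC25 and A253 gave 38 lower genes with the replicate block and 7 to 38 with a library left out. The linker share in A253 overexpressing libraries was 11.21% without the near-identical copies, against 11.09% with them. Same-numbered samples did not deviate together in every pair, with correlations of -0.192, 0.011 and 0.181 in A253 and -0.031 in SCC25, and in CAL27 0.153 for sh 65 with control, 0.086 for sh 64 with sh 65 and -0.011 for sh 64 with control. The numbers were therefore not taken to pair the samples in the main fit. Yet in every SCC25 and CAL27 group the second replicate had the higher linker and core sums. In A253 the core sums ranked the replicates alike in both groups. A shared effect of replicate number on the histone genes was not tested. With the replicate block, rises numbered 43 with sh 65 and 46 for sh 65 over sh 64. For the named genes, 1983 values under alternatives kept direction and side of the threshold, 91 were weaker, 89 were stronger and 56 changed sign without passing the threshold under either setting. The cause of these shifts was not tested. Members under the filter, 29 of 73 in A253, could not be tested.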
